A study of Homo sapiens with 6 samples.

Results

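The 10 genes described here carry out the movement and storage of sterols inside the cell: NPC1, NPC2, LIPA, ABCA2 and STARD3 at late endosomes and lysosomes, OSBP, OSBPL8, OSBPL9 and GRAMD1A at membrane contact sites, and SOAT1 in esterification. They were taken by gene symbol from the deposited count table with no threshold on a measured value, but the genes were chosen with earlier results of these data known. All 10 were found among 65746 genes in the table, and all 10 passed the filter on low counts that left 11525 genes for testing. The samples were SU-DHL-8 cells, an established human diffuse large B-cell lymphoma line labelled wild type, given either the plant sterol beta-sitosterol at 15 µM or the solvent DMSO at an equal concentration for 24 h. Both groups grew in the same RPMI medium with serum, antibiotics and CO2, and each had 3 libraries, 6 in all, from experiments that the labels call replicates. A single cell line was used, and the p-values measure only the spread between these samples.

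Sterol that enters a cell in lipoproteins reaches late endosomes and lysosomes as ester. There an acid lipase frees it, the NPC2 and NPC1 proteins pass it out through the limiting membrane, and transfer proteins carry it to the endoplasmic reticulum, Golgi and plasma membrane, often in exchange for phosphoinositides or phosphatidylserine. At the endoplasmic reticulum, excess sterol is esterified by SOAT1 and kept in lipid droplets, and beta-sitosterol, which differs from cholesterol by an ethyl group on the side chain, is known as a poor substrate of that enzyme.

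Library totals ran from 26453101 to 29359951 counts in beta-sitosterol libraries and from 31314104 to 35565163 in DMSO libraries. DMSO replicate 2 correlated least with the other DMSO libraries (log2 levels across genes, r = 0.982 and 0.972), while beta-sitosterol libraries correlated at 0.994. All 10 markers fixed for B cells were above 0 in every library, with summed levels of 5540 to 5840 CPM (counts scaled to library size with TMM factors) after beta-sitosterol and 5220 to 6150 CPM in DMSO. The sum is mostly CD74. By the edgeR test described below, 2 of the 10 markers were called higher and 3 lower, where 19% and 21.8% of all tested genes were. MS4A1 and CD79A rose (18.3 ± 1.36 and 767 ± 31.3 CPM after beta-sitosterol, against 3.92 ± 0.63 and 371 ± 48.2 CPM in DMSO). PAX5, POU2AF1 and EBF1, genes of B cell transcription regulators, fell (208 ± 9.36, 109 ± 4.07 and 19.3 ± 1.19 CPM after beta-sitosterol, against 660 ± 43.5, 295 ± 30.2 and 80.7 ± 26.1 CPM in DMSO; SD, n = 3 each). Of the 7 T cell markers, CD3E, CD3G and CD2 were at 0 in all libraries, and the list summed to 2.57 to 3.09 CPM after beta-sitosterol and 0.587 to 1.13 CPM in DMSO. LCK, the only tested gene of that list, made up most of the sum and was called higher. Its levels were 2.44, 2.42 and 2.98 CPM in beta-sitosterol replicates 1 to 3, against 0.528, 0.69 and 1.01 CPM in DMSO replicates 1 to 3. The 7 monocyte and macrophage markers summed to 6.42 to 8.40 CPM after beta-sitosterol and 4.86 to 7.19 CPM in DMSO, with FCGR3A at 0. The 7 fibroblast and epithelial markers summed to 0.849 to 2.0 CPM after beta-sitosterol and 0.144 to 0.157 CPM in DMSO, with DCN at 0. COL1A1, the only tested gene of that list, was called higher, at 0.611, 0.454 and 0.909 CPM after beta-sitosterol and 0 CPM in each DMSO library. The part of these marker levels in the results was not tested.

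After beta-sitosterol, 3 of the 5 endolysosomal genes rose and 3 of the 4 contact site genes fell. The transporter gene ABCA2 rose 5.23-fold and the lysosomal sterol carrier gene NPC2 rose 1.89-fold, and LIPA, the lipase gene, rose 1.29-fold. GRAMD1A fell to 0.481 of the DMSO level, OSBP to 0.663 and OSBPL8 to 0.702. NPC1, STARD3, OSBPL9 and SOAT1 did not pass the test. The test was edgeR's quasi-likelihood F test across all 11525 genes with Benjamini-Hochberg adjustment, and a gene was called at an adjusted p under 0.05. Of all tested genes 40.8% were called, 19% higher and 21.8% lower, so the 3 higher and 3 lower calls among 10 genes stand beside a transcriptome in which calls were frequent. On log2(TPM + 1) with limma 713 genes were higher and 2226 lower, against 2185 and 2512 here, and of the 10 genes 1 was higher and 3 were lower. Without beta-sitosterol replicate 2, 3094 genes were called in all, against 4697 with every library, and without replicate 1 3127. The treated libraries lay wholly above the DMSO libraries for 4 of the 10 genes and wholly below for another 4, against 27% and 29.1% of all tested genes (56.1% in either direction). The median log2 fold change was 0.07 over the 10 genes and -0.04 over all genes tested. In these bulk samples, fewer cells with a transcript and less of it per cell cannot be told apart.

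**Figure D1:**
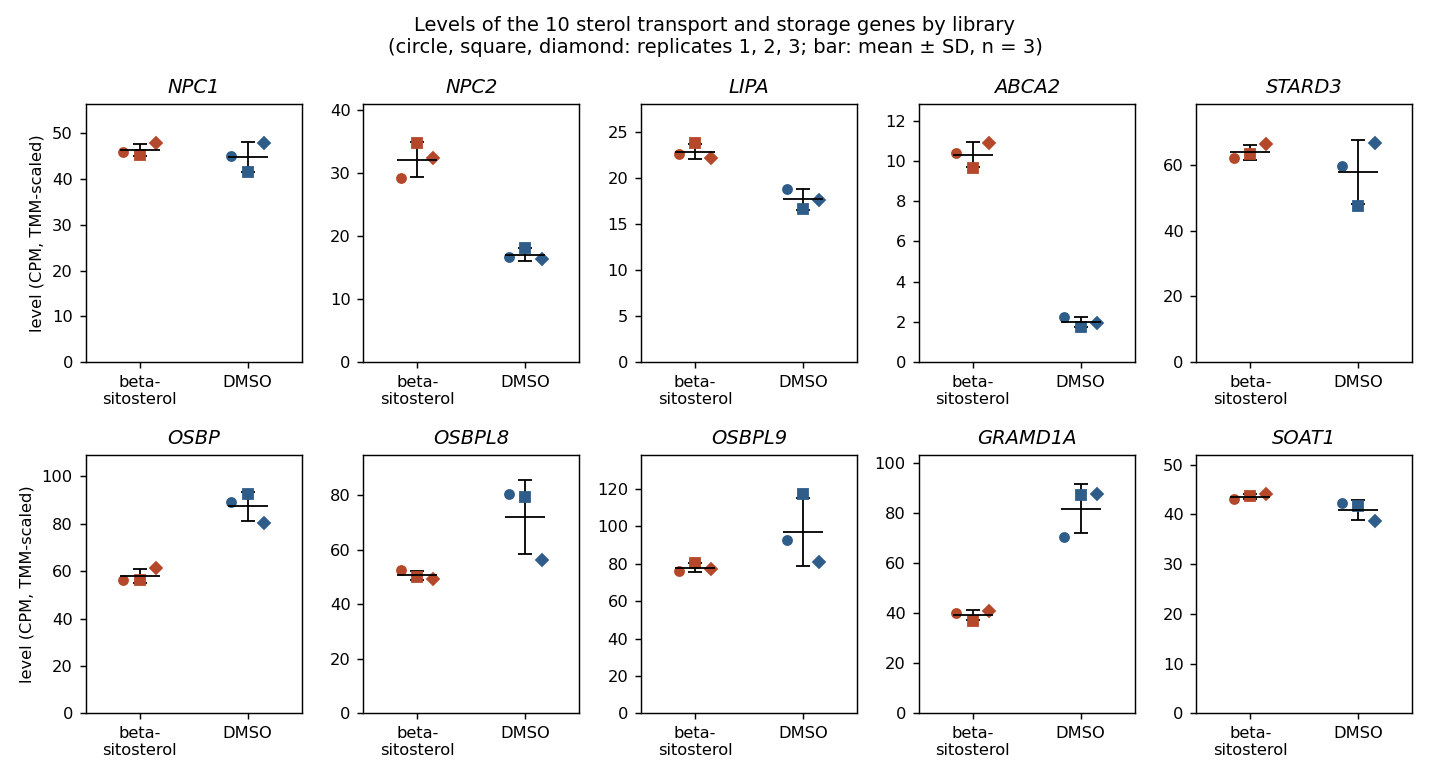
Levels of the 10 genes in CPM (linear axis from 0) in each beta-sitosterol library (left) and DMSO library (right), with the mean and SD of 3 libraries. ABCA2 and NPC2 stood wholly higher and GRAMD1A and OSBP wholly lower after beta-sitosterol, while NPC1 and STARD3 overlapped.

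ABCA2 (ENSG00000107331, chromosome 9, 137007234 to 137028922, minus strand; RefSeq, GRCh38.p14) encodes an ATP-binding cassette transporter of endosomes and lysosomes, best known from oligodendrocytes, that affects the traffic of lipoprotein-derived sterol. Its counts were 307, 255 and 301 in beta-sitosterol replicates 1 to 3, against 76, 55 and 68 in DMSO replicates 1 to 3. On the CPM scale these were 10.4, 9.65 and 10.9 after beta-sitosterol, against 2.23, 1.73 and 1.96 in DMSO. The lowest treated library thus lay far above the highest DMSO library. Means were 10.3 ± 0.65 CPM after beta-sitosterol and 1.97 ± 0.25 CPM in DMSO (SD, n = 3 each). The log2 fold change was 2.39 ± 0.17 (SE, edgeR adjusted p = 1.01e-04), with a 95% interval for the fold of 3.97 to 6.89. On log2(TPM + 1) and log2(TPM + 0.1) with limma it stayed called at 0.45 and 1.51 (adjusted p = 0.00294 and 0.00374), scales that understate the change of a gene at so low a TPM. A call of at least 2-fold higher was reached by 9.09% of all tested genes, and ABCA2 exceeded 98.1% of them in absolute log2 fold change. ABCA2 was nevertheless the least abundant of the 10 genes in both groups, on either length-scaled measure given below.

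RefSeq lists 2 starts for ABCA2. The window from 250 bases before to 50 bases after the more downstream of them, at chr9:137028188-137028487 on the minus strand, is shown because this gene had the largest change. It has a G and C content of 86.7%, against a median of 58.7% over all 35116 RefSeq windows of that length, and holds none of the motifs searched below, so no base is in capitals.
ABCA2 promoter: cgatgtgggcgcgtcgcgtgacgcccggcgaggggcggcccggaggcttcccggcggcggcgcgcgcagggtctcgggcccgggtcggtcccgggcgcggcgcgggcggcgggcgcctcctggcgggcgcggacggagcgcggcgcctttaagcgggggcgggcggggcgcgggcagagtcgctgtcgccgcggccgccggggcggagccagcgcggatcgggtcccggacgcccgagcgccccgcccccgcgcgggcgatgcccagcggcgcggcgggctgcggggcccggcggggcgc

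NPC2 (ENSG00000119655, chromosome 14, 74479935 to 74493512) encodes the small soluble protein of the lysosomal lumen that binds sterol and hands it to NPC1. It stood at 29.3, 34.8 and 32.4 CPM in beta-sitosterol replicates 1 to 3, against 16.7, 18.2 and 16.3 CPM in DMSO replicates 1 to 3. All treated libraries lay above all DMSO libraries. The log2 fold change was 0.92 ± 0.13 (SE, edgeR adjusted p = 0.00101), and the 95% interval of the fold was 1.54 to 2.31. On log2(TPM + 1) and log2(TPM + 0.1) with limma, the call was narrowly lost (log2 fold changes of 0.61 and 0.65, adjusted p = 0.0538 and 0.0515). On those scales the median of all genes lay at -0.19 and -0.26. The deposited TPM of the listed genes summed to 57% to 57.8% of a full total in beta-sitosterol libraries and to 39.5% to 69.2% in DMSO libraries.

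NPC1 (ENSG00000141458, chromosome 18, 23506184 to 23586506), the gene of the membrane protein that receives sterol from NPC2, stood at 46.0, 45.2 and 47.9 CPM after beta-sitosterol, against 45.1, 41.5 and 47.9 CPM in DMSO. The groups overlapped. Its log2 fold change was 0.05 ± 0.11 (SE, edgeR adjusted p = 0.757), and the 95% interval of the fold ran from 0.863 to 1.24. A rise of the size seen for NPC2 lay outside that interval. With the trend of log2 levels on gene length and GC content removed from each library, an alternative chosen after seeing the data, NPC1 was called higher by 0.38 log2 units (adjusted p = 0.0171).

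The pair was also compared inside each library, which removes any scaling between libraries. The log2 ratio of NPC2 over NPC1 TPM was 0.76, 1.03 and 0.85 in beta-sitosterol replicates 1 to 3, against -0.02, 0.22 and -0.15 in DMSO replicates 1 to 3. The ratio was thus 1.82 times as high after beta-sitosterol, with no overlap between groups. The exact two-sided permutation test gave p = 0.1 (0.2 adjusted over the 4 ratios compared), and 0.1 is the smallest p that 3 against 3 libraries allow. The ratio keeps any trend of a library on gene length or GC content, and exonic length was 2.75 kb for NPC2 and 10.1 kb for NPC1. With that trend removed, NPC2 was called higher by 0.72 log2 units (edgeR adjusted p = 0.00125) and NPC1 by 0.38. The genes thus lay closer together than in the ratio.

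LIPA (ENSG00000107798, chromosome 10, 89213572 to 89414679), the gene of lysosomal acid lipase, which hydrolyses the sterol esters and triglycerides of lipoproteins, stood at 22.6, 23.8 and 22.2 CPM after beta-sitosterol, against 18.8, 16.6 and 17.6 CPM in DMSO. The groups did not overlap, and the treated libraries differed little among themselves. Its log2 fold change of 0.37 ± 0.12 (SE) passed narrowly (edgeR adjusted p = 0.04). The call was lost without beta-sitosterol replicate 1, 2 or 3 (adjusted p = 0.126, 0.167 and 0.11) and without DMSO replicate 1 (0.0564). The LIPA call was also lost with no filter on low counts (0.086), with replicate number as a block (0.0671) and after removal of the length and GC trend (0.0863). With limma on log2(TPM + 1) or log2(TPM + 0.1) it was lost as well (0.779 and 0.765).

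STARD3 (ENSG00000131748, chromosome 17, 39637144 to 39664201) encodes a late endosomal protein that binds sterol through its START domain and tethers the organelle to the endoplasmic reticulum. Its levels stood at 62.1, 63.3 and 66.5 CPM after beta-sitosterol, against 59.7, 47.4 and 66.7 CPM in DMSO. DMSO replicate 2 was the low library, and the groups overlapped. STARD3 changed by 0.14 ± 0.14 log2 units (SE, edgeR adjusted p = 0.455), and by 0.01 without DMSO replicate 2. After removal of the length and GC trend it was called, at 0.22 (adjusted p = 0.044). The 95% interval of the fold, 0.878 to 1.39, stayed short of 2-fold in either direction.

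Of the 4 genes of transfer proteins at contact sites, GRAMD1A, OSBP and OSBPL8 were called lower, where 21.8% of all tested genes were. GRAMD1A (ENSG00000089351, chromosome 19, 34994727 to 35026469) encodes Aster-A, an endoplasmic reticulum protein that takes up sterol from the plasma membrane. It stood at 40.0, 36.9 and 40.9 CPM after beta-sitosterol, against 70.3, 87.2 and 87.3 CPM in DMSO. The highest treated library lay well below the lowest DMSO library. GRAMD1A changed by -1.05 ± 0.13 log2 units (SE, edgeR adjusted p = 6.19e-04), where 6.37% of all tested genes were called at least 2-fold lower. It stayed called in all 15 alternatives, with log2 fold changes from -1.30 to -0.97.

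OSBP (ENSG00000110048, chromosome 11, 59574398 to 59615774), the founding gene of the oxysterol-binding protein family, encodes a protein that brings sterol from the endoplasmic reticulum to the trans-Golgi in exchange for phosphatidylinositol 4-phosphate. It had 56.3, 56.2 and 61.3 CPM after beta-sitosterol, against 89.2, 92.3 and 80.4 CPM in DMSO. The groups were well apart and each was tight. OSBP changed by -0.59 ± 0.12 log2 units (SE, edgeR adjusted p = 0.00434), and the fold had a 95% interval of 0.553 to 0.796. OSBP stayed called in all 15 alternatives.

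OSBPL8 (ENSG00000091039, chromosome 12, 76351797 to 76559771) encodes a protein anchored in the endoplasmic reticulum that exchanges phosphatidylserine for phosphatidylinositol 4-phosphate at the plasma membrane. It had 52.5, 50.1 and 49.1 CPM after beta-sitosterol, against 80.2, 79.4 and 56.3 CPM in DMSO. DMSO replicate 3 lay close above the treated libraries, and DMSO replicates 1 and 2 far above. OSBPL8 changed by -0.51 ± 0.16 log2 units (SE, edgeR adjusted p = 0.0297). The call was lost without beta-sitosterol replicate 1, 2 or 3 (adjusted p = 0.0856, 0.104 and 0.11) and without DMSO replicate 1 (0.0997), and without DMSO replicate 3 the log2 fold change was -0.62 (0.00302).

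OSBPL9 (ENSG00000117859, chromosome 1, 51518272 to 51789219), whose protein acts at contacts of the endoplasmic reticulum with the trans-Golgi and endosomes, had 75.9, 80.6 and 76.9 CPM after beta-sitosterol, against 92.5, 117 and 81.1 CPM in DMSO. The groups did not overlap, although the DMSO libraries were widely spread. Its log2 fold change of -0.32 ± 0.15 (SE) did not pass the test (edgeR adjusted p = 0.124, 95% interval of the fold 0.633 to 1.02). Without DMSO replicate 3 it was called (adjusted p = 0.0463).

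Promoter windows of OSBPL8 and OSBP are shown as those of the called oxysterol-binding protein genes among the 10. Of 17 RefSeq windows for the 10 genes, 1 held the E-box CACGTG, a window of OSBPL8, and there it lay within TCACGTGA, the core of the CLEAR element known from lysosomal genes, on both strands alike since both are palindromes. The E-box occurred in 7.26% of all RefSeq windows and the longer core, which always contains it, in 0.98%. The sterol regulatory element core TCACNCCAC was searched on both strands and lay in 0 of the 17 windows and in 1.13% of all windows. These are matches of letters and not measured binding sites. The OSBPL8 window is chr12:76559722-76560021 and the OSBP window chr11:59615725-59616024, both on the minus strand of GRCh38.p14, with the match in capitals.
OSBPL8 promoter: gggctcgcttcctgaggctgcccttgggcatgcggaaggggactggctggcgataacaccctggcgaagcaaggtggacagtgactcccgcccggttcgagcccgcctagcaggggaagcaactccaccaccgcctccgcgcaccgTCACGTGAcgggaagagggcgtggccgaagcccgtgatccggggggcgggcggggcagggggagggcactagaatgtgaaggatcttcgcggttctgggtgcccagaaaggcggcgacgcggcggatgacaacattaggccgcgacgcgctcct
OSBP promoter: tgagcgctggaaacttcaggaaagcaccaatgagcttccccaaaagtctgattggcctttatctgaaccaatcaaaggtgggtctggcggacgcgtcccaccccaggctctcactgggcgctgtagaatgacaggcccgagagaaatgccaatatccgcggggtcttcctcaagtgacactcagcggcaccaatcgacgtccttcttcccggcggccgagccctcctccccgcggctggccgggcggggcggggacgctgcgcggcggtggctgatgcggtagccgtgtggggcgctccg
In the OSBPL8 window the first base of the E-box lies at -103 relative to the start, and the second window of that gene has no match.

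SOAT1 (ENSG00000057252, chromosome 1, 179293797 to 179358680) encodes the sterol esterifying enzyme of the endoplasmic reticulum in most cells. It had 43.0, 43.6 and 44.0 CPM after beta-sitosterol, against 42.3, 41.7 and 38.6 CPM in DMSO. The treated libraries lay just above the DMSO libraries, whose SD was 1.97 CPM. The change of 0.09 ± 0.11 log2 units (SE, edgeR adjusted p = 0.542) did not pass, with a 95% interval of the fold of 0.894 to 1.27. SOAT2, the second esterifying enzyme, known mainly from liver and intestine, was listed at 0 in all 6 libraries.

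**Figure D2:**
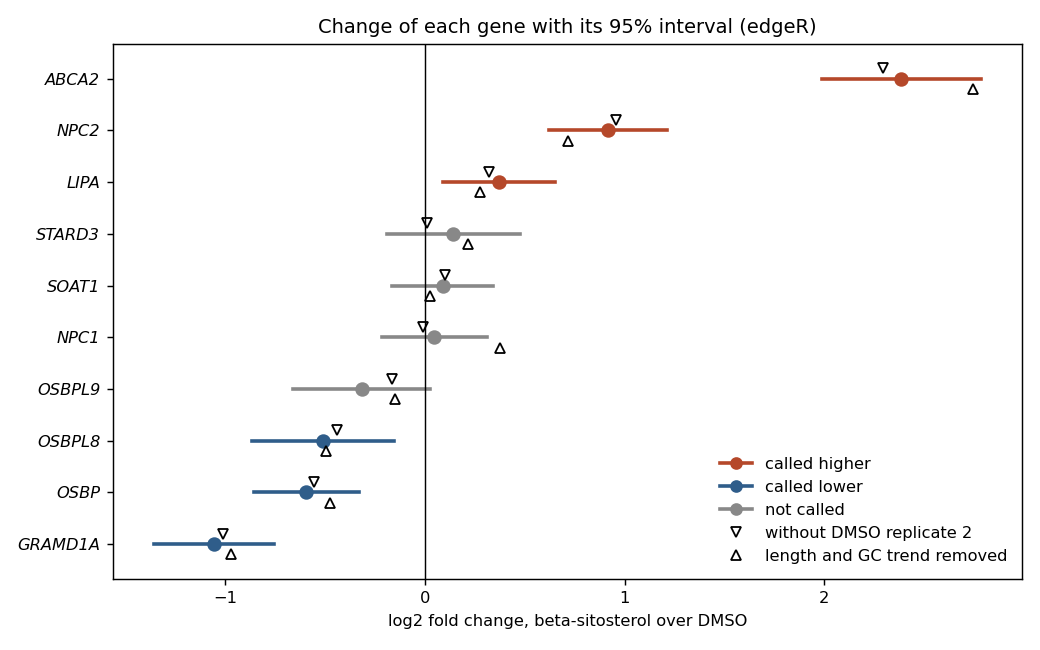
Log2 fold change of each gene, beta-sitosterol over DMSO, with its 95% interval from edgeR, and the value without DMSO replicate 2 or after removal of the length and GC trend. ABCA2 at 2.39 and GRAMD1A at -1.05 stood at the ends, and the intervals of NPC1, STARD3, OSBPL9 and SOAT1 crossed 0.

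LIPA was also set against SOAT1 within each library. The log2 ratio of LIPA over SOAT1 TPM was -0.03, 0.03 and -0.09 in beta-sitosterol replicates 1 to 3. In DMSO replicates 1 to 3 it was -0.27, -0.43 and -0.23. The ratio was 1.21 times as high after beta-sitosterol, with no overlap between groups. The exact two-sided permutation test gave p = 0.1, the smallest that 3 against 3 libraries allow (adjusted p = 0.2). For the oxysterol-binding protein genes the ratios overlapped between groups. OSBP over OSBPL8 had a mean log2 ratio of 2.61 ± 0.11 after beta-sitosterol and 2.71 ± 0.19 in DMSO (SD, n = 3 each, exact permutation p = 0.6). OSBPL9 over OSBPL8 had 0.34 ± 0.08 after beta-sitosterol and 0.14 ± 0.19 in DMSO (exact permutation p = 0.2, adjusted p = 0.267).

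**Figure D3:**
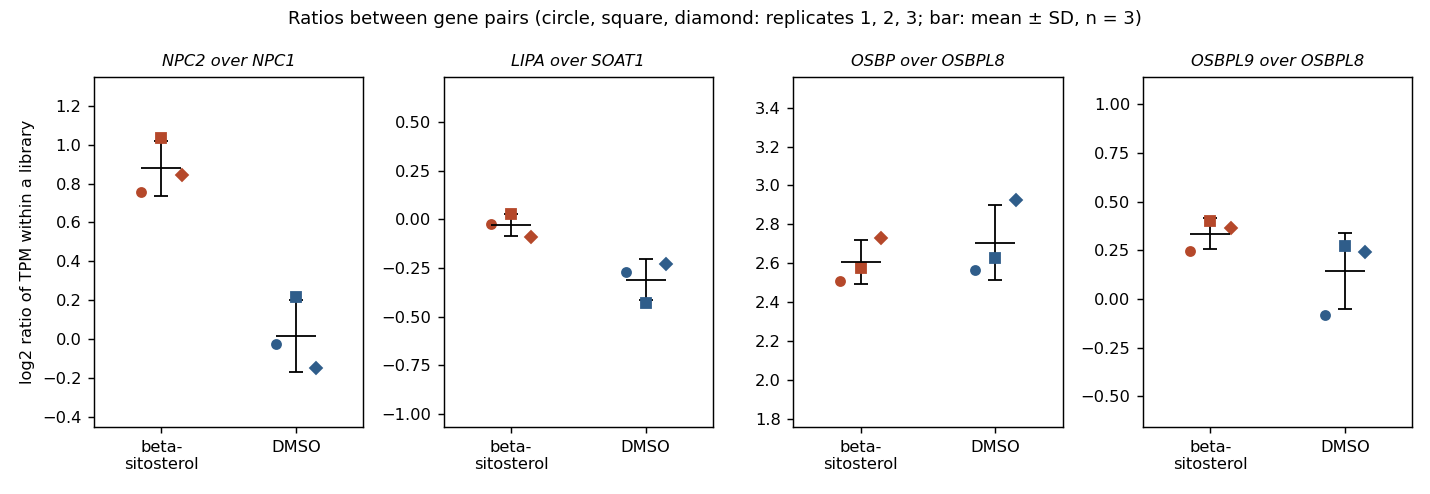
Log2 ratio of the TPM of a pair of genes within each library, beta-sitosterol left and DMSO right, with mean and SD of 3 libraries; each panel spans the same range of log2 units. The NPC2 over NPC1 ratio averaged 0.88 after beta-sitosterol and 0.02 in DMSO, and the ratios to OSBPL8 overlapped.

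Levels between genes were compared per length. On the deposited TPM scale OSBP was the most abundant of the 10, at 32.1 ± 1.26 TPM after beta-sitosterol and 58.6 ± 11.9 TPM in DMSO (SD, n = 3 each). NPC2 was next after beta-sitosterol, at 16.2 ± 1.26 TPM, against 10.4 ± 1.97 TPM in DMSO, and GRAMD1A was next in DMSO, at 8.19 ± 0.45 TPM after beta-sitosterol and 20.6 ± 4.55 TPM in DMSO. NPC1, GRAMD1A, SOAT1, LIPA, STARD3, OSBPL9 and OSBPL8 followed after beta-sitosterol with means from 8.79 to 5.27 TPM. Among them the libraries of SOAT1 (7.81 to 7.87 TPM) lay within the range of LIPA (7.35 to 7.98 TPM). In DMSO the means of NPC1, NPC2, OSBPL9, OSBPL8, SOAT1, STARD3 and LIPA lay between 10.5 and 7.31 TPM, and neighbours in that order differed by less than the SD of either. ABCA2 was last, at 0.54 ± 0.03 TPM after beta-sitosterol and 0.13 ± 0.04 TPM in DMSO.

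The order depends on the length used. The gene length behind the deposited TPM, set against GENCODE v29 exonic length and divided by the median of all tested genes, was 0.541 for OSBP, 2.78 for STARD3 and 2.73 for ABCA2. With CPM per kilobase of GENCODE v29 exons, STARD3 came first after beta-sitosterol (12.4, against 11.2 in DMSO), followed by NPC2 (11.7, against 6.20 in DMSO) and OSBP (10.5, against 15.9 in DMSO). OSBP remained first in DMSO and ABCA2 last in both groups (0.898 after beta-sitosterol and 0.171 in DMSO). Summed over the 10 genes, CPM was 438.1, 444.1 and 452.1 in beta-sitosterol replicates 1 to 3, against 517.0, 543.0 and 494.2 in DMSO replicates 1 to 3. Some reads may belong to neighbours, since 5 of the genes share exonic bases with another GENCODE v29 gene and no strand setting for the counting is given in the sources used here. The shared part was 6.37% of exonic bases for NPC2, 5.98% for NPC1, 4.97% for OSBPL9, 4.07% for LIPA and 2.09% for GRAMD1A.

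Of 33 other listed genes of sterol transport 28 were tested, of which 3 were called higher and 10 lower, beside 19% and 21.8% of all tested genes. The 13 calls in either direction stand beside 40.8% of all genes. Their median log2 fold change was -0.22, against -0.04 over all genes tested. On log2(TPM + 1) with limma 0 were higher and 7 lower, and after removal of the length and GC trend 7 were higher and 10 lower. Without beta-sitosterol replicate 1, 2 or 3 the calls in either direction numbered 5, 6 and 6, against 13 with all libraries. The lower calls of smallest p were GRAMD1B, CAV1, OSBPL7 and PI4KB. GRAMD1B, which encodes the related protein Aster-B, stood at 3.77, 3.75 and 3.35 CPM after beta-sitosterol, against 6.52, 8.50 and 8.57 CPM in DMSO (log2 fold change -1.12 ± 0.18 SE, edgeR adjusted p = 0.00183). CAV1, the caveolin gene, whose protein binds sterol at the plasma membrane, averaged 29.4 ± 1.69 CPM after beta-sitosterol and 50.8 ± 5.72 CPM in DMSO (SD, n = 3 each, -0.79, adjusted p = 0.00206). PI4KB, a Golgi kinase that makes the phosphatidylinositol 4-phosphate used by OSBP, averaged 85.2 ± 4.23 CPM after beta-sitosterol and 123 ± 8.90 CPM in DMSO (-0.54, adjusted p = 0.00661). The call of PI4KB was lost without beta-sitosterol replicate 2 (adjusted p = 0.0526). SCP2, which encodes sterol carrier protein 2 of peroxisomes, was the rise of smallest p among transport genes, with 41.0, 40.5 and 37.0 CPM after beta-sitosterol, against 25.9, 16.6 and 19.3 CPM in DMSO (0.94 ± 0.18, adjusted p = 0.00367). On log2(TPM + 1) with limma, SCP2 missed the threshold (adjusted p = 0.146).

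Families shared by the 10 genes and this list were then set side by side, a grouping chosen after the values were seen. Of 12 oxysterol-binding protein genes 10 were tested. Lower calls were OSBP, OSBP2, OSBPL7, OSBPL8 and OSBPL11, 5 in all where 21.8% of all tested genes were called lower, and the higher call was OSBPL3 alone, at 41.2 ± 1.57 CPM after beta-sitosterol and 29.5 ± 3.29 CPM in DMSO (0.48, adjusted p = 0.0174). OSBPL7 had 13 ± 0.67 CPM after beta-sitosterol and 22 ± 3.99 CPM in DMSO (-0.76, adjusted p = 0.00637), and missed the threshold on log2(TPM + 1) (adjusted p = 0.0543). Without any 1 of the beta-sitosterol libraries the lower calls of the family were OSBP and OSBPL7 alone, and OSBPL3 was not called. Without DMSO replicate 1 the lower calls were OSBP, OSBPL7 and OSBPL11, with OSBPL3 again not called. With limma on log2(TPM + 1) they were OSBP, OSBPL8 and OSBPL11, and OSBPL3 was not called (adjusted p = 0.418). After removal of the length and GC trend 3 of the family were higher and 4 lower. OSBP2 also lost its call with no filter (0.0537), with a replicate block (0.0521), without DMSO replicate 3 (0.105) and after removal of that trend (0.0872). OSBPL6 was listed at 0, and OSBPL5, with 0 counts in each DMSO library, fell under the filter. With no filter OSBPL5 was called higher, and the family had 2 higher and 4 lower calls. The summed CPM of the tested family members was 342 to 347 after beta-sitosterol and 377 to 456 in DMSO. In the GRAMD1 family, GRAMD1A and GRAMD1B were lower and GRAMD1C was higher (3.74 ± 0.72 CPM after beta-sitosterol and 2.23 ± 0.33 CPM in DMSO, 0.75, adjusted p = 0.0284). The call of GRAMD1C was lost without beta-sitosterol replicate 1 or 2 (adjusted p = 0.0992 and 0.121), without DMSO replicate 1 or 3 (0.0774 and 0.0538) and on log2(TPM + 1) (0.165). The list held 3 phosphatidylinositol 4-kinase genes and not PI4K2B. All 3, PI4KA, PI4KB and PI4K2A, were called lower, where 21.8% of all tested genes were, with log2 fold changes of -0.36, -0.54 and -0.57. Of these, PI4KB alone was called without beta-sitosterol replicate 1 or 3, and none was called without replicate 2 (adjusted p = 0.138, 0.0526 and 0.0589). PI4KA also lost its call without DMSO replicate 3 (0.0612), with no filter (0.0736) and with a replicate block (0.057). The same held on log2(TPM + 1) (0.0736). After removal of the length and GC trend the sign of PI4KA turned, at 0.04 log2 units, and it was not called (adjusted p = 0.707). The genes of the tethers to which many of these proteins bind, VAPA, VAPB and MOSPD2, were not called, and VAPA was nearest to the threshold (-0.36, adjusted p = 0.0727).

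Of 18 listed genes of ester and neutral lipid storage 14 were tested, of which 6 were called higher and 2 lower, beside 19% and 21.8% of all tested genes, with a median log2 fold change of 0.46. Without beta-sitosterol replicate 1, 2 or 3 the calls in either direction numbered 5, 4 and 4, against 8 with all libraries. AUP1, whose protein sits on lipid droplets and in endoplasmic reticulum degradation complexes, had 334, 346 and 355 CPM after beta-sitosterol, against 147, 163 and 164 CPM in DMSO (log2 fold change 1.13 ± 0.11 SE, edgeR adjusted p = 2.27e-04). PLIN2, which encodes a main coat protein of lipid droplets, had 43.6, 51.2 and 46.6 CPM after beta-sitosterol, against 23.6, 22.8 and 23.8 CPM in DMSO (1.01 ± 0.12, adjusted p = 5.20e-04). PNPLA2, the gene of adipose triglyceride lipase, had 212, 198 and 206 CPM after beta-sitosterol, against 106, 120 and 134 CPM in DMSO (0.78 ± 0.12, adjusted p = 0.00173). In each of these the groups were well apart. DGAT1, DGAT2 and LCAT were the other rises. FITM2, whose protein acts in droplet formation, was lower, as was NCEH1, a hydrolase of sterol esters, at 5.94 ± 0.63 CPM after beta-sitosterol and 9.02 ± 0.67 CPM in DMSO (-0.60, adjusted p = 0.0159). The call of NCEH1 was lost without beta-sitosterol replicate 2 or 3 (adjusted p = 0.0853 and 0.0701), and that of FITM2 without beta-sitosterol replicate 1, 2 or 3 (0.0923, 0.11 and 0.0846), DMSO replicate 1 or 3 (0.085 and 0.0789) and on log2(TPM + 1) (0.112). DGAT1 and DGAT2 lost theirs without any 1 of the beta-sitosterol libraries (0.0646 to 0.0877), without DMSO replicate 1 (0.0905 and 0.0821) and on log2(TPM + 1) (0.406 and 0.116), and LCAT on that scale alone of these (0.174). Of the genes that rose, DGAT1 and DGAT2 encode enzymes of triglyceride synthesis, and LCAT encodes an enzyme that esterifies sterol in plasma. On log2(TPM + 1) with limma, 1 of the list was higher and 1 lower, and PLIN2 and PNPLA2 missed the threshold (adjusted p = 0.0527 and 0.131).

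**Figure D4:**
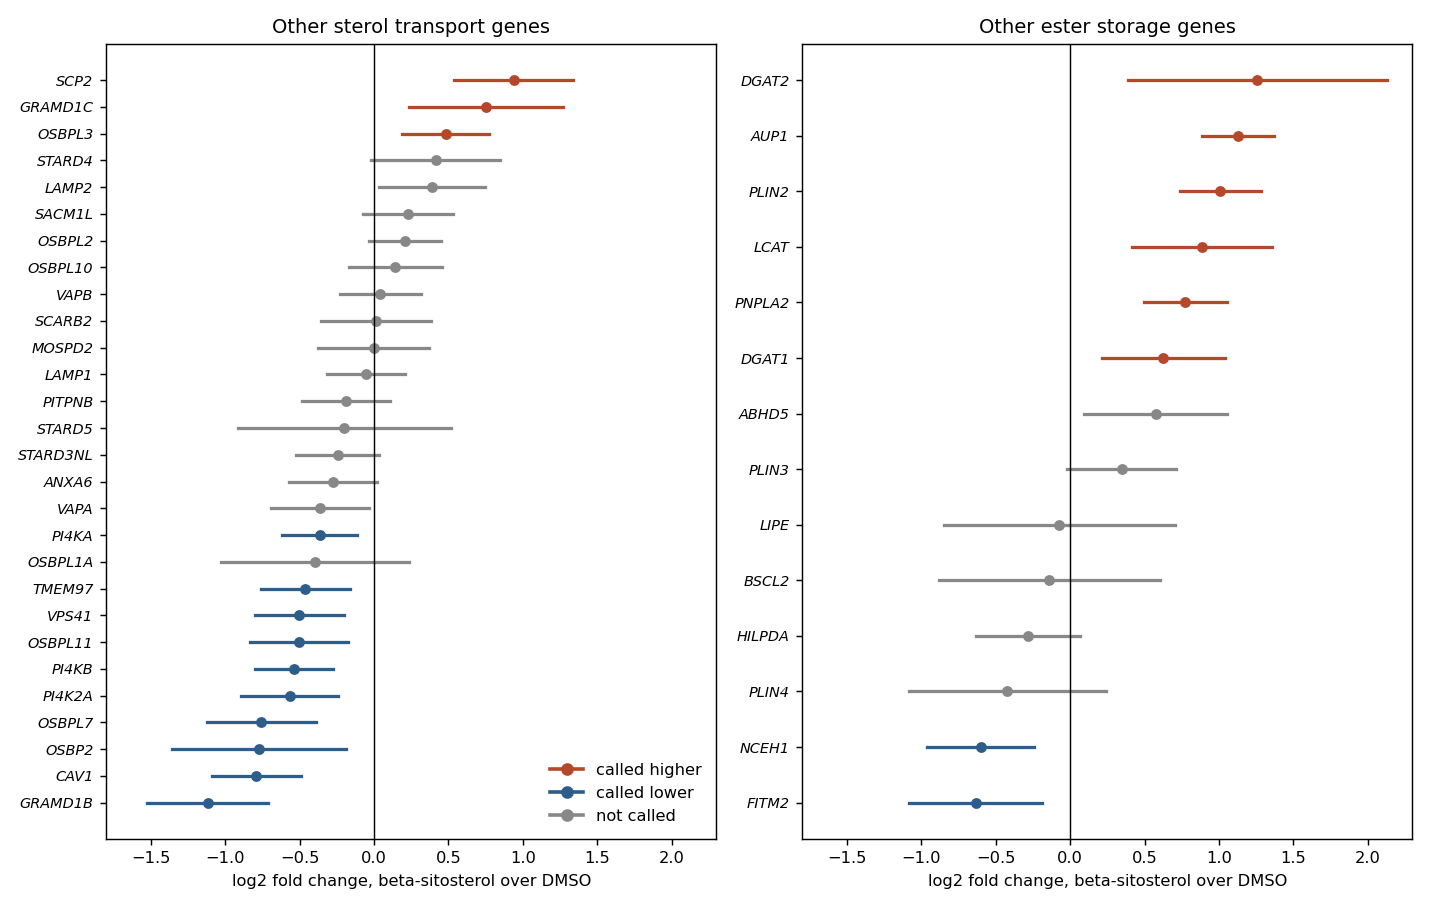
Log2 fold change, beta-sitosterol over DMSO, with 95% intervals from edgeR for the 28 tested genes of the sterol transport list (left) and the 14 of the ester storage list (right). Transport genes had 3 higher and 10 lower calls and storage genes 6 higher and 2 lower, where 19% of all tested genes were called higher and 21.8% lower.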

How the data were processed

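The authors deposited a table of raw read counts per gene for the 6 libraries. The authors also deposited TPM, which scale the same genes for length and library. Software credited to the submitters' processing notes is fastp 0.23.2, featureCounts 2.0.1, STAR 2.7.10 and StringTie 2.2.1, with GRCh38 and no role for each. No annotation or strand setting is given in the sources used here. Of 65807 rows, 61 repeats of a symbol were dropped, and 47323 genes were at 0 in all libraries, from which no statement on expression is made.

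Counts were tested in R 4.3.3 with edgeR 4.0.16 (TMM, filterByExpr, glmQLFTest, treatment as the only term, two-sided, Benjamini-Hochberg over all tested genes). SE is the size of the log2 fold change divided by the root of F. The fit was tested on simulated counts. Alternatives used DESeq2 1.42.0, limma 3.58.1 on log2 TPM, other scalings and filters, a replicate block, each library left out, and smooth terms for length and GC (mgcv). The 10 genes and the lists were chosen with earlier results of these data known. Named are all 10 genes and, of the other lists, the 4 called genes of smallest p in each direction, with others chosen after their values were seen. Promoters are RefSeq windows on GRCh38.p14, where all 10 genes matched by symbol. Protein motifs were not analysed here.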

Additional observations from a re-analysis of the deposited data

How the results depend on the processing

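Of 150 values for the 10 genes under 15 alternatives, 125 kept their direction and side of the threshold, 15 fell short of it, 3 newly passed it and 7 changed sign. RLE factors, library totals, a 1 CPM filter and DESeq2 changed no call among the 10 genes. Log2(TPM + 1) and log2(TPM + 0.1) with limma called 2939 and 2935 of all genes, 713 and 691 of them higher. On both scales 1 of the 10 genes was higher. Transport genes had 7 and 8 calls, 0 and 0 of them higher, and storage genes 2 and 2 calls, 1 higher and 1 lower on each scale. Signs turned on these scales for NPC1 (-0.19 and -0.20), STARD3 (-0.10 and -0.10) and SOAT1 (-0.15 and -0.16), none of them called. The replicate block gave 5 higher transport genes, 5 of the 10 genes called instead of 6, and 4743 calls in all. It ended the call of LIPA (adjusted p = 0.0671). Same-numbered libraries had correlated deviations of 0.0388, 0.101 and 0.154, so the numbers were not taken to pair samples, although each library correlated best with its own number. Removing the length and GC trend, chosen after seeing the data, gave 7 higher transport genes. Leaving out a library in turn gave 3094 to 6640 calls over all genes (1593 to 3549 lower), the highest without DMSO replicate 2. It gave 5 to 16 transport calls (1 to 4 higher, 4 to 12 lower) and 4 to 9 storage calls (0 to 3 lower). NPC1 ranged from -0.0088 without DMSO replicate 2 to 0.14 without DMSO replicate 3, and the log2 ratio of OSBP over OSBPL8 from -0.17 without DMSO replicate 1 to 0.01 without DMSO replicate 3. The cause of these changes was not tested. With 3 libraries per group, the 95% intervals of the fold for NPC1 (0.863 to 1.24) and SOAT1 (0.894 to 1.27) held 1 and values on both sides of it. A change within these intervals is not excluded. The intervals belong to the main fit, and NPC1 was called higher by 0.38 log2 units after removal of the length and GC trend.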
